A study of Mus musculus with 20 samples.

Results

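The genes of the Wnt pathway were followed here in RNA of tagged ribosomes from the mouse hypothalamus. The tag was targeted to tanycytes, the elongated glia that line the floor of the third ventricle. The set holds the Wnt ligands, their frizzled, LRP and R-spondin receptors, the secreted antagonists, the Dishevelled proteins, β-catenin with APC and the axins, and the TCF/LEF factors, chosen by gene symbol among the genes listed in the deposited comparison tables. It came to 42 of the 13845 listed genes, namely 8 ligands, 5 Wnt-binding antagonists, 2 Dickkopf genes, 10 frizzled receptors, 2 LRP co-receptors, 2 R-spondins, 2 R-spondin receptors, 3 Dishevelled genes, 4 genes of β-catenin and its destruction complex and 4 TCF/LEF factors. All 42 passed the filter on low counts in both comparisons.

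Translating ribosomes were precipitated through a GFP-tagged L10a subunit, and the bound RNA (IP) was sequenced together with the RNA of the whole lysate (input). All mice carried the Cre-dependent L10a-GFP allele at the Rosa26 locus, and the Dio2 promoter of an injected AAV drove Cre, so tagged ribosomes mark the cells in which that promoter was active. There were 3 pools of NCD-fed controls, 3 pools of NCD-fed IRΔTan mice (IR fl/fl, insulin receptor deleted with the tag) and 4 pools of HFD-fed controls, 20 libraries in all. The series text gives controls as IR wt/wt mice that received the same Cre virus, whereas the sample labels name them IRmKate2. Mice were injected at 12 weeks of age and sampled 4 weeks later, HFD began at about 4 weeks of age, and the stated length of feeding differs between sources (8 weeks in the series text, 12 weeks by the ages). Male and female mice were injected. Each pool held 5 to 7 mice by the series text and 4 to 7 hypothalami by the extraction protocol.

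Wnt ligands are lipid-modified proteins that bind a frizzled receptor together with LRP5 or LRP6, and the complex recruits Dishevelled. In the absence of ligand, APC and the axins hold β-catenin in a complex that marks it for destruction, whereas after binding β-catenin accumulates and acts with TCF/LEF factors in the nucleus. R-spondins acting through LGR receptors raise the amount of frizzled at the cell surface, and the SFRP proteins, with FRZB among them, bind Wnt ligands outside the cell. In the ventricular wall, Wnt signalling is best known from the patterning of the developing brain and from neural progenitors.

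The promoters of the 4 members with the largest excess in the IP are shown because these genes define the pattern described below. A RefSeq promoter (GRCm38.p6) was matched for 28 members, of which 24 had a single entry. The letters CTTTGA or CTTTGT, the core that TCF/LEF factors are known to bind, were searched on both strands in the 250 bases before the start and are printed in capitals. They were present before 5 of the 24 members (20.8%) and in 27.6% of all 32841 promoters of this length. Frzb lies on chr2:80411970-80447625 and Tcf7l1 on chr6:72626378-72789254, both on the minus strand. In these genes the letters stood 95 to 90 and 28 to 23 bases before the RefSeq start, within an exon of the GENCODE vM21 annotation that starts further upstream, so only 30 bases around them are given. The first 2 lines give those 30 bases, and the others the bases before the start of Fzd5 and Lgr6, which held no match.
Frzb, chr2:80447474-80447503, minus strand: tcccctgaaaacTCAAAGccttctcggaag
Tcf7l1, chr6:72789056-72789085, minus strand: gccctgtcaaaaCTTTGTcgccgcagcggc
Fzd5, chr1:64737752-64738000, minus strand: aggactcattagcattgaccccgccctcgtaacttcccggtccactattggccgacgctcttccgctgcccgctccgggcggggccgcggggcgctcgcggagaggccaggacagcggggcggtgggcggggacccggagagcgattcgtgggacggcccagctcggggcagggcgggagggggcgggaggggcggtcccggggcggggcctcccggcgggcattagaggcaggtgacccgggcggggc
Lgr6, chr1:135105277-135105526, minus strand: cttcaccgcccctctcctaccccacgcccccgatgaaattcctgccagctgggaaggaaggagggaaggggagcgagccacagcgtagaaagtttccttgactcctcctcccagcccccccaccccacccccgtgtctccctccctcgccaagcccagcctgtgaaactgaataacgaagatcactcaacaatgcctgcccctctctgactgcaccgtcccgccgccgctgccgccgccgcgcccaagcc
A match describes letters only, and these windows do not show where a factor binds.

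Libraries held between 29469250 and 59385389 counts. In the IP, those of HFD-fed controls held 29469250 to 34715427 and those of NCD-fed controls 42868069 to 48625510, so depth differed with diet there. In NCD-fed controls all 12 tanycyte markers (Frzb among them) and all 7 markers of ciliated ependymal cells were higher in the IP than in the input, and all 6 neuronal, 6 oligodendrocyte and 6 tested microglial markers were lower, as were 5 of 6 astrocyte markers. Neuronal markers still summed to 3417 to 3997 CPM (counts scaled to library size) in those IPs. Tanycyte markers summed to 1103 to 1395 CPM there and to 92.64 to 107.0 CPM in the inputs. Ependymal markers summed to 734.9 to 884.3 CPM in the IPs and to 15.21 to 17.87 CPM in the inputs. From which of these cells the excess of a member came was not tested. Of 4 tested endothelial markers 1 was higher, of 6 tested fibroblast and mural markers 1 was higher and 1 lower, and of 3 pars tuberalis markers 1 was higher and 1 lower. Insr fell in the IP of IRΔTan mice, from 38.8 ± 1.404 (SD, n = 3) to 13.2 ± 2.89 (SD, n = 3) CPM (log2 fold change -1.56, SE 0.13).

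Expression of the members in the IP of NCD-fed controls spanned a wide range. Per kilobase of merged exons, Ctnnb1, which encodes β-catenin, was highest at 62.9 CPM per kilobase, followed by the transcription factor Tcf7l2 at 25.0, Dkk3 at 16.6, the receptor Fzd5 at 16.5 and Frzb at 14.1. The values of Dkk3 and Fzd5 lie closer to each other than their spread between pools. In the input, Ctnnb1 and Tcf7l2 again ranked 1 and 2, but Fzd5 ranked 19 and Frzb 32 of the 42 members. The highest ligands in the IP were Wnt4 at 2.11 ± 0.33 (SD, n = 3) and Wnt5a at 2.04 ± 0.69 (SD, n = 3) CPM per kilobase, whose order turned with the longest transcript as length, and the remaining 6 ligands lay below 0.85. With the longest transcript in place of merged exons, 9 of the 10 highest members stayed among the highest 10.

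In NCD-fed controls, 14 of 42 members were higher in the IP than in the input and 14 were lower, by edgeR's quasi-likelihood test with Benjamini-Hochberg adjustment over all genes. Of all 13518 genes tested, 34.1% were higher and 33.0% lower, so the members as a whole were called about as often as other genes, and their median log2 fold change was 0.00 beside 0.01 for all genes. The roles differed in direction in these pools, although no test compared them. Of the 8 ligands 6 were lower and 1 was higher, whereas 3 of 5 Wnt-binding antagonists were higher and none was lower. With library totals in place of TMM scaling, 62.9% of all calls were higher, the median of all genes was 0.20 and the members gave 17 higher and 10 lower.

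Frzb, a secreted antagonist that binds Wnt ligands, had the largest excess of any member. Its CPM in the IP of the 3 NCD control pools were 50.5, 47.8 and 38.8, and in their inputs 1.60, 1.53 and 1.76. The fractions were far apart in every pool (log2 fold change 4.67, SE 0.17, adjusted p = 2.1e-10). The related antagonists Sfrp1 and Sfrp4 had lower levels but were also higher in the IP. Sfrp1 gave 13.8, 25.3 and 11.7 CPM in the IP against 5.94, 7.78 and 3.99 in the input (log2 fold change 1.39, SE 0.29), and Sfrp4 gave 3.97, 6.10 and 3.48 against 1.99, 1.43 and 1.58 (1.31, SE 0.27). For both, every IP lay above every input. Sfrp2 was not called, with 2.79, 3.08 and 1.94 CPM in the IP and 3.49, 4.34 and 2.49 in the input.

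Among the Dickkopf genes, Dkk3, whose product differs from the classical LRP-binding Dickkopf proteins in its action, had 60.9, 58.0 and 47.9 CPM in the IP and 32.6, 36.1 and 30.5 in the input (log2 fold change 0.62, SE 0.11). Dkk1, an inhibitor that binds LRP5 and LRP6, lay between 0.288 and 0.404 CPM in the IP and between 0.565 and 0.830 in the input, and was not called (-1.06, SE 0.45, adjusted p = 0.053).

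A single frizzled receptor stood out. Fzd5 had 131.7, 127.7 and 83.5 CPM in the IP of NCD-fed controls and 11.3, 8.47 and 9.31 in the input (log2 fold change 3.43, SE 0.26, adjusted p = 8.4e-08). None of the other 9 frizzled genes was called higher. Fzd1 was lower in the IP, at 15.1, 15.9 and 12.4 CPM against 18.4, 17.0 and 17.0 (-0.41, SE 0.15), and Fzd4 was lower at 0.659 to 0.927 CPM in the IP against 1.19 to 2.01 (-1.03, SE 0.32). Fzd3, the second most abundant frizzled gene per kilobase, had 57.5, 60.3 and 52.7 CPM in the IP and 52.7, 56.3 and 56.2 in the input and was not called.

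The co-receptors went opposite ways. Lrp5 had 7.76, 7.56 and 6.34 CPM in the IP and 3.46, 4.10 and 4.69 in the input (0.69, SE 0.20), with no overlap. Lrp6 had 55.2, 45.5 and 37.6 in the IP and 50.7, 54.3 and 57.55 in the input (-0.36, SE 0.14), where the ranges overlap. The call of Lrp6 reversed in sign, without passing the test, once the trend with gene length was removed.

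Lgr6, a receptor for R-spondins, had 45.4, 44.2 and 40.1 CPM in the IP and 7.76, 7.67 and 9.75 in the input (2.23, SE 0.16, adjusted p = 3.8e-08). Its relative Lgr4 was similar in both, at 23.6, 25.5 and 24.9 against 21.5, 20.95 and 21.1 CPM, and was not called. Of the R-spondins, Rspo3 had 9.38, 15.4 and 12.9 CPM in the IP and 4.08, 4.60 and 6.02 in the input (1.23, SE 0.22). Rspo1 was lower in the IP, at 9.72, 7.95 and 11.7 against 14.5, 14.6 and 11.9 CPM (-0.61, SE 0.17).

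Within the cell, Dvl2 and Dvl3, which relay the signal from the receptors, were higher in the IP (1.65, SE 0.21, and 0.72, SE 0.09), and Dvl1 was not called, at 12.65, 15.0 and 16.0 CPM in the IP and 12.0, 10.8 and 10.9 in the input (0.24, SE 0.13). Dvl2 had 6.57, 7.48 and 5.56 CPM in the IP and 2.31, 1.93 and 1.45 in the input. Dvl3 had 43.3, 45.3 and 48.05 in the IP and 24.9, 24.0 and 26.6 in the input. Neither Dvl2 nor Dvl3 overlapped between the fractions. Both axins, the scaffolds of the destruction complex, were higher in the IP. Axin1 had 22.5, 23.3 and 21.0 CPM there and 13.3, 14.5 and 13.8 in the input (0.55, SE 0.10). Axin2, itself a common target of β-catenin, had 30.6, 29.8 and 32.1 CPM there and 17.0, 17.0 and 19.2 in the input (0.66, SE 0.12). Apc, which also holds the complex together, was lower, with 190.7, 191.6 and 162.2 CPM in the IP and 357.1, 380.3 and 401.5 in the input (-1.20, SE 0.09). Its change ran from -1.28 to -0.55 over 14 alternatives and was called in each. Ctnnb1 differed little, at 312.9, 327.3 and 339.0 CPM in the IP and 367.4, 343.7 and 361.8 in the input (-0.26, SE 0.08).

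The TCF/LEF factors divided as well. Tcf7l1, mostly a repressor of Wnt targets, had 20.45, 25.0 and 21.7 CPM in the IP and 3.12, 3.28 and 3.58 in the input (2.62, SE 0.20, adjusted p = 8.6e-08). Lef1, mostly an activator, had 19.9, 13.9 and 20.8 in the IP and 35.1, 29.55 and 40.15 in the input (-1.07, SE 0.16). Tcf7l2 had 211.7, 184.3 and 261.7 CPM in the IP and 266.0, 234.2 and 302.8 in the input (-0.42, SE 0.13), and these ranges overlap. Tcf7, at 1.77 to 3.75 CPM in the IP, was not called.

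Among the ligands, Wnt5a, known for signalling without β-catenin, was the one that was higher in the IP. It had 14.7, 21.9 and 11.2 CPM there and 8.62, 9.90 and 8.12 in the input (0.71, SE 0.20). Wnt7a had 0.789, 0.454 and 1.83 in the IP and 3.49, 4.55 and 4.20 in the input (-2.12, SE 0.42), the largest deficit of any member. Wnt3 gave 2.43, 0.809 and 2.22 against 4.86, 3.86 and 5.45 CPM (-1.51, SE 0.35). Both were low in the IP in every control pool. Wnt4, close to Wnt5a in level per kilobase, had 8.55, 7.67 and 10.4 CPM in the IP and 12.3, 11.5 and 12.1 in the input (-0.56, SE 0.14). Wnt2b had 3.06, 3.20 and 1.28 CPM against 4.81, 5.24 and 4.64 (-1.09, SE 0.30). Wnt9a had 2.79, 3.24 and 2.45 CPM against 4.62, 3.65 and 5.11 (-0.79, SE 0.23). The fractions did not overlap for these ligands. Wnt9b overlapped, with 2.52, 0.513 and 0.638 CPM in the IP and 3.09, 2.38 and 3.06 in the input (-1.35, SE 0.47), and Wnt7b was not called.

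Several of the weaker calls were lost when 1 control pool was left out. Lrp5 (0.53, adjusted p = 0.087), Ctnnb1 (-0.22, adjusted p = 0.076) and Tcf7l2 (-0.40, adjusted p = 0.070) were not called without pool 1. Rspo1 was not called without pool 2 (-0.44, adjusted p = 0.070). The calls of Fzd1 and Wnt9a were lost without pool 1 or without pool 3, and those of Lrp6 and Wnt9b without pool 2 or without pool 3, with adjusted p of 0.056 to 0.32. With library totals, Ctnnb1, Fzd1, Lrp6 and Tcf7l2 were not called. Tcf7l2 was also not called with the length trend removed (-0.09, adjusted p = 0.58).

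**Figure D1:**
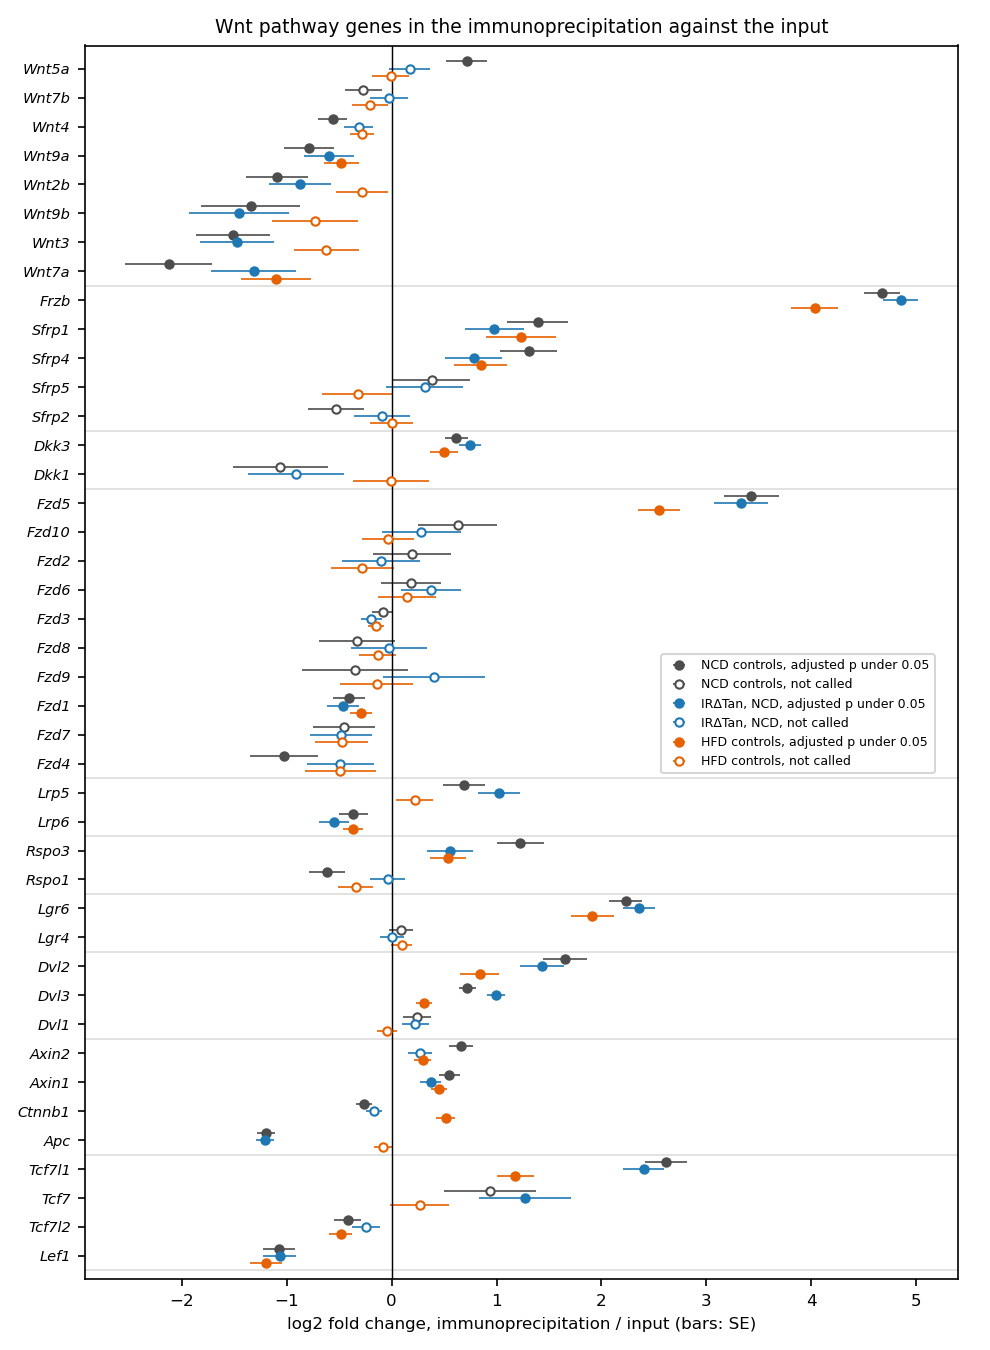
Log2 fold change of IP over input (x axis) for the 42 members, ordered by role, in NCD controls, IRΔTan mice and HFD controls; filled points passed an adjusted p of 0.05, and bars are the SE. Frzb at 4.67 and Fzd5 at 3.43 in NCD controls stand farthest to the right, and most ligands lie left of 0.

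Frzb and Fzd5 had the largest excess in the other groups too. In IRΔTan mice 13 members were higher and 9 lower, beside 34.3% and 32.8% of all genes, and with library totals 61.3% of all calls were higher. Frzb (4.85, SE 0.17), Fzd5 (3.33, SE 0.26), Tcf7l1 (2.40, SE 0.20) and Lgr6 (2.36, SE 0.16) led in the same order. In HFD-fed controls 13 members were higher and 6 lower, beside 27.9% and 26.5% of all genes, and with library totals 63.4% of all calls were higher. There the excess was 4.03 (SE 0.22) for Frzb, 2.55 (SE 0.20) for Fzd5, 1.91 (SE 0.20) for Lgr6 and 1.18 (SE 0.17) for Tcf7l1. Ctnnb1 was higher in the IP than in the input on HFD (0.51, SE 0.09), whereas it was lower in NCD-fed controls. Of the 8 ligands 5 were lower in IRΔTan mice but only 2 in HFD-fed controls, and none was higher. In both groups 3 of 5 Wnt-binding antagonists were higher and none was lower. Without NCD control pool 1 the members lower in the IP of NCD-fed controls numbered 9, and without IRΔTan pool 2 those lower in IRΔTan mice numbered 5. Among all genes, 3959 of 13546 and 3929 of 13545 were lower in those fits.

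No member differed between IRΔTan mice and NCD-fed controls in either fraction by edgeR, with an unadjusted p under 0.05 for 5 members in the IP, 0 in the input and 4 in the genotype by fraction interaction. By edgeR few genes were called at all, 0.0148% higher and 0.0444% lower in the IP, 0.00740% higher and 0% lower in the input, and 0% higher and 0.00740% lower in the interaction. Frzb had 41.0, 44.0 and 57.05 CPM in the IP of IRΔTan mice, a range that overlaps that of the controls (log2 fold change 0.05, SE 0.13). Tcf7l1 had 30.0, 15.9 and 21.7 CPM (0.01, SE 0.18), Fzd5 101.8, 66.6 and 146.0 (-0.13, SE 0.23) and Lgr6 31.9, 34.6 and 47.0 (-0.20, SE 0.15). The spread between the 3 IRΔTan pools was wide for these genes. Rspo1 had the smallest p, with 19.6, 14.3 and 12.9 CPM against 9.72, 7.95 and 11.7 in controls. These ranges do not overlap (0.67, SE 0.17, adjusted p = 0.15), and DESeq2 called it (0.67, adjusted p = 0.025), as its only member. Of all 13518 genes, DESeq2 called 94 higher and 146 lower in the IP. Sfrp4 (-0.67, SE 0.26), Rspo3 (-0.50, SE 0.22), Wnt5a (-0.44, SE 0.19) and Dvl3 (0.21, SE 0.08) had the other unadjusted p under 0.05.

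HFD feeding was accompanied by lower levels of several of the same genes in the IP. Compared with NCD-fed controls, 13 members fell and 4 rose, beside 26.4% and 25.7% of all 13568 genes, and the median over the members was -0.12 beside -0.04 for all genes. With library totals 38.0% of all calls were higher, against an about even split, and 17 members were lower and 3 higher. The count of members lower was 5 when only the IPs entered the fit, 7 without NCD control pool 1 and 5 without NCD control pool 2. Among all genes, 2450 of 13465, 3154 of 13578 and 3110 of 13578 were lower in those fits. Frzb, Tcf7l1, Rspo3, Lrp5 and Dvl3 were lower and Apc and Ctnnb1 higher under each of the 16 alternatives. In bulk RNA, fewer cells of a type and less RNA per cell cannot be told apart.

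Tcf7l1 fell most, with 15.1, 8.54, 8.14 and 10.3 CPM in the 4 HFD pools. All 4 values lay below the lowest NCD control pool at 20.45 CPM (log2 fold change -1.06, SE 0.18, adjusted p = 0.00020). Frzb had 29.4, 14.02, 26.5 and 24.9 CPM on HFD, all below the lowest control at 38.8 (-0.92, SE 0.19, adjusted p = 0.0011). Sfrp4, its relative, had 3.54, 1.66, 2.34 and 2.83 CPM (-0.78, SE 0.26), a range that overlaps the 3.48 of the lowest control. That call was lost with the IPs alone, without HFD pool 2 and without NCD control pool 2 (adjusted p = 0.071, 0.067 and 0.13).

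The agonists of the pathway moved in both directions. Rspo3 fell to 8.23, 6.52, 6.62 and 8.56 CPM, below every control pool (-0.72, SE 0.18, adjusted p = 0.0039). Rspo1 had 19.5, 11.5, 12.8 and 15.0 CPM (0.61, SE 0.18, adjusted p = 0.012), and its lowest HFD pool lay just under the highest control at 11.7. The call of Rspo1 was lost without NCD control pool 2 (adjusted p = 0.073). Wnt5a had 9.83, 7.81, 11.35 and 11.45 CPM (-0.63, SE 0.19), near or below the lowest control at 11.2, and without NCD control pool 2, the highest, the change was -0.34 (adjusted p = 0.11). Wnt7a had 1.36, 1.94, 1.97 and 3.00 CPM (1.03, SE 0.38, adjusted p = 0.034). It overlapped the controls and lost its call without any single one of 5 pools, with adjusted p of 0.055 to 0.14.

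Among the receptors, Lrp5 had 4.60, 3.08, 4.845 and 5.48 CPM on HFD, all below the lowest control at 6.34 (-0.66, SE 0.18, adjusted p = 0.0074). Fzd5 had 90.65, 53.7, 55.55 and 91.2 CPM (-0.63, SE 0.20, adjusted p = 0.015), and 2 of these pools exceeded the lowest control at 83.5. Its call was lost with the IPs alone and without NCD control pool 1 or 2 (adjusted p = 0.063, 0.077 and 0.067). Fzd1 had 10.9, 10.8, 10.96 and 11.5 CPM, with no overlap (-0.37, SE 0.12). Fzd3 (-0.24, SE 0.08) and Lgr4 (-0.26, SE 0.10) were lower by a smaller amount. Fzd1 and Fzd3 were not called without NCD control pool 1 (adjusted p = 0.066 and 0.065) or pool 2 (0.079 and 0.095), and Lgr4 was called in 7 of the 16 alternatives and without HFD pool 4 alone of the single pools. Lgr6 was not called, at 36.5, 16.8, 34.4 and 38.2 CPM (-0.43, SE 0.21, adjusted p = 0.090).

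In the cytoplasmic part of the pathway, Dvl3 had 36.9, 36.7, 28.6 and 34.6 CPM, all below the lowest control at 43.3 (-0.39, SE 0.08, adjusted p = 0.0013). Dvl2 (-0.49, SE 0.19, adjusted p = 0.045) and Axin1 (-0.22, SE 0.08, adjusted p = 0.033) fell as well. Dvl2 was called in 8 of 16 alternatives and Axin1 in 10. The call of Axin1 was lost without HFD pool 2, NCD control pool 1 or NCD control pool 2 (adjusted p of 0.088 to 0.12), and that of Dvl2 without any single one of 5 pools (0.074 to 0.17). Axin2 was not called, with 27.3, 25.3, 24.3 and 30.7 CPM against 30.6, 29.8 and 32.1 in controls (-0.17, SE 0.09, adjusted p = 0.12). Apc and Ctnnb1 rose. Apc had 282.1, 363.2, 289.0 and 296.3 CPM on HFD, all above the highest control at 191.6 (0.78, SE 0.10, adjusted p = 2.4e-05). With the trend with gene length removed, its change was 0.41. Ctnnb1 had 408.5, 589.7, 535.2 and 447.4 CPM, all above the highest control at 339.0 (0.62, SE 0.10, adjusted p = 0.00017). The remaining 25 members were not called. Among them, Sfrp1 had 20.7, 7.24, 23.15 and 10.8 CPM on HFD (-0.10, SE 0.35), with a wide spread between pools. Dkk3 had 54.1, 34.5, 49.6 and 53.55 CPM (-0.19, SE 0.14) and Tcf7l2 281.0, 245.8, 229.7 and 229.2 CPM (0.19, SE 0.12). Lef1 had 17.0, 24.5, 15.0 and 19.6 CPM (0.08, SE 0.17). These ranges overlap those of the controls.

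**Figure D2:**
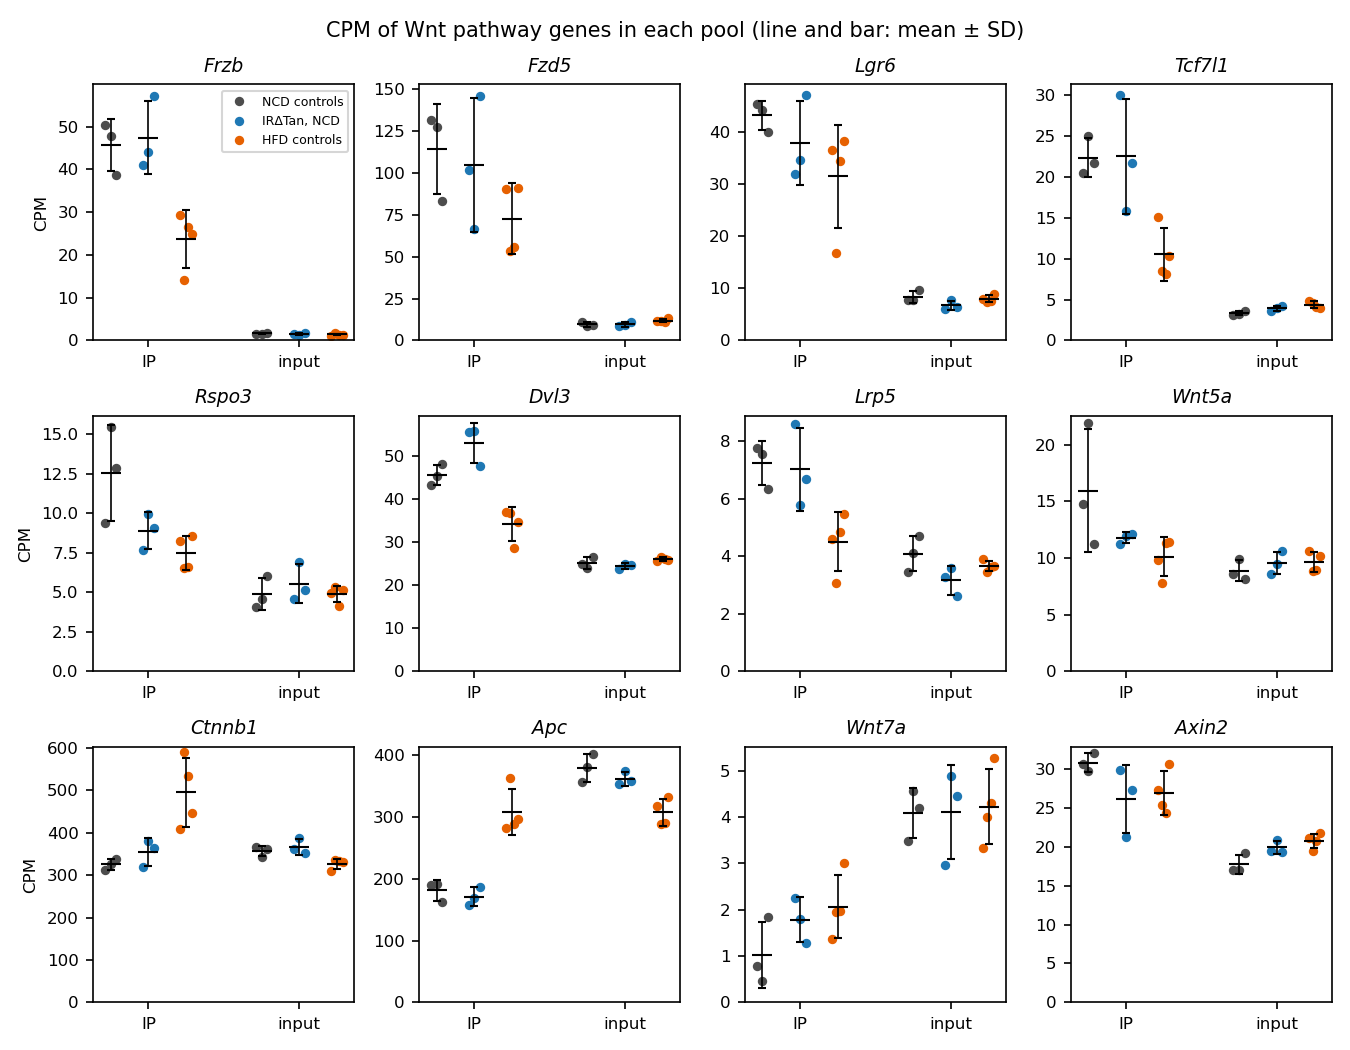
CPM (y axis, from 0) of 12 members in every pool, IP on the left and input on the right, with the 3 groups side by side; points are pools, and the line and bar give mean ± SD. The HFD pools of Frzb lie at 14.02 to 29.4 CPM in the IP, below all NCD control pools, and near 1 to 2 CPM in the input.

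**Figure D3:**
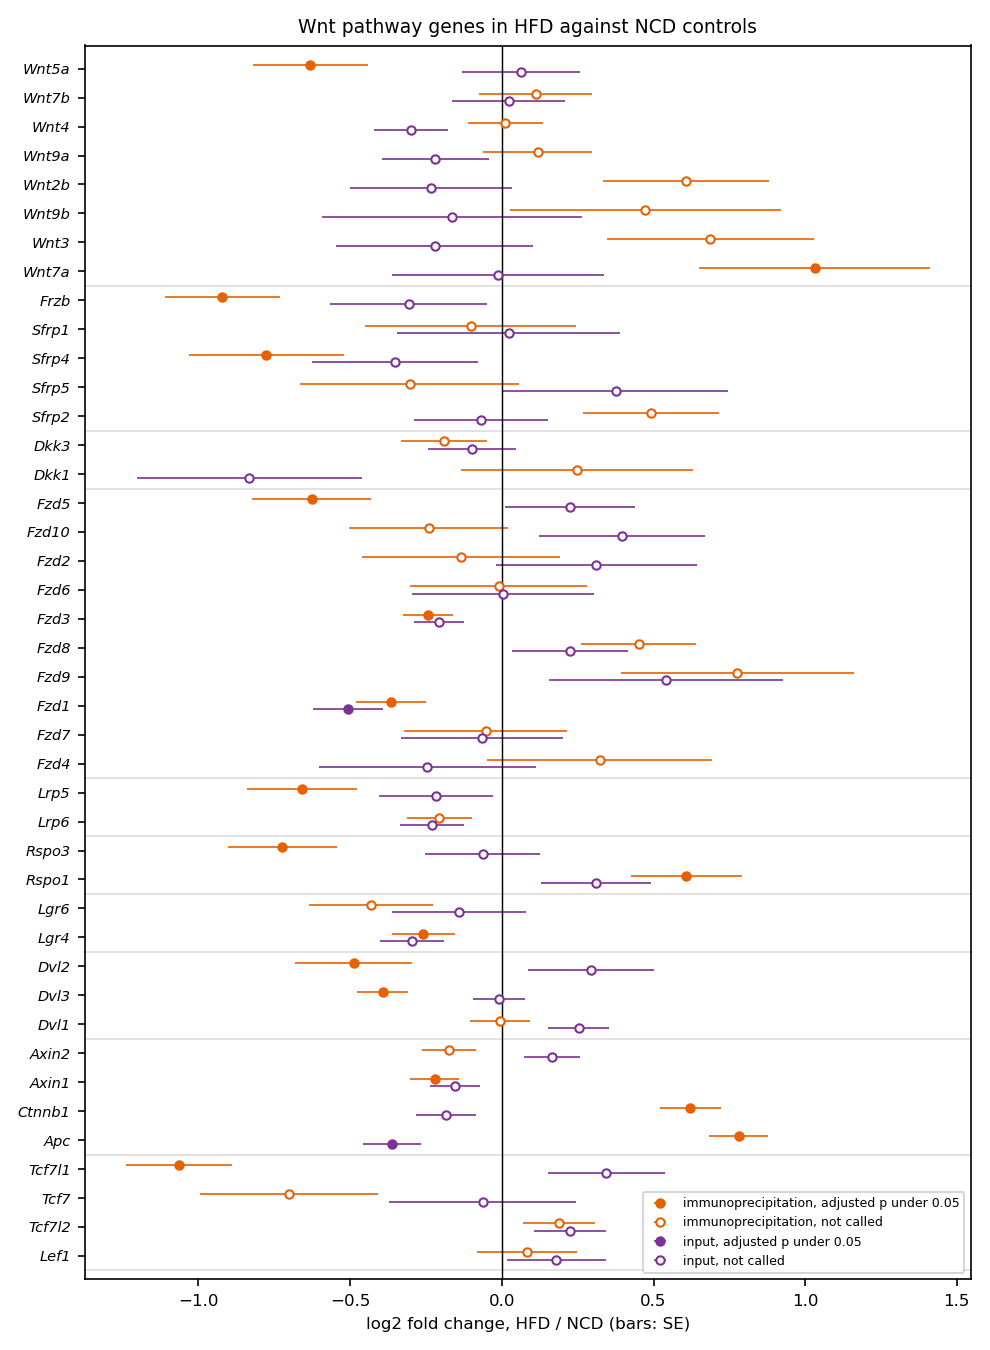
Log2 fold change of HFD over NCD controls (x axis) for the 42 members in the IP and in the input; filled points passed an adjusted p of 0.05, and bars are the SE. Tcf7l1 at -1.06 and Frzb at -0.92 fell in the IP, and Ctnnb1 at 0.62 and Apc at 0.78 rose there.

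The members that fell were mostly those with an excess in the IP, and markers of cell types moved with them. IRΔTan pools share no library with the diet comparison, although their scaling and spread were estimated in 1 fit with the NCD control libraries, which that comparison also used. In the IRΔTan pools 13 members tested in both were higher in the IP than in the input. Of these, 9 fell on HFD and none rose, namely Axin1, Dvl2, Dvl3, Frzb, Fzd5, Lrp5, Rspo3, Sfrp4 and Tcf7l1, beside 49.8% of all 4602 genes higher in that IP. Of the 9 members lower in that IP, 2 rose on HFD (Apc and Wnt7a) and 1 fell (Fzd1), beside 50.2% and 9.98% of all 4409 such genes. The direction by class was thus shared with the other genes.

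Of the 12 tanycyte markers 7 fell in the IP on HFD and none rose, and all 7 ependymal markers fell, while all 6 neuronal and 4 of 6 tested microglial markers rose. The 12 tanycyte markers summed in the IPs to 1103 to 1395 CPM for NCD-fed controls, 1161 to 1449 for IRΔTan mice and 407.2 to 1001 for HFD-fed controls. Neuronal markers summed to 3417 to 3997, 3608 to 4097 and 5169 to 6656 CPM in that order. HFD pool 2, which had the lowest Frzb and Lgr6 and the highest Apc and Ctnnb1, also had the lowest tanycyte sum (407.2 CPM) and the highest neuronal sum (6656 CPM). Tcf7l1 and Dvl3 were instead lowest in HFD pool 3 (8.14 and 28.6 CPM). The ependymal sum was also lowest in pool 3 (303.3 CPM, against 381.2 in pool 2). Without HFD pool 2 the count of members lower on HFD was 9, beside 3028 of 13565 genes. The changes were then -0.73 for Frzb, -0.97 for Tcf7l1, 0.70 for Apc and 0.54 for Ctnnb1.

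The mean log2 level of the 11 tanycyte markers other than Frzb was lower on HFD by a difference of -0.73 (HFD minus NCD). Measured relative to that mean, in a comparison added after the data were seen, Frzb differed by -0.25 and Tcf7l1 by -0.37, Fzd5 by 0.06, Rspo3 by 0.03, Sfrp4 by 0.02, Lrp5 by 0.08, Wnt5a by 0.13, Dvl2 by 0.26, Dvl3 by 0.31, Fzd1 by 0.36, Lgr4 by 0.45, Fzd3 by 0.46 and Axin1 by 0.49. Of the 13 members 2 thus lay below the markers' own change and 11 above it. That split depends on the markers averaged, which did not move alike. Mean IP CPM in NCD-fed controls and on HFD were 32.35 and 33.35 for Nes and 67.14 and 67.15 for Scn7a. They were 141.8 and 56.3 for Crym and 155.7 and 61.5 for Dio2. Ependymal markers did not enter the mean. No test is given for the members' differences from that mean, since 4 pools against 3 leave 13 tests almost no room to pass. Every HFD pool lay below every NCD pool in CPM for 10 of the 13 members, which were picked as lower in these same pools, so that nothing is read from this count beside the 24.5% of all genes tested. Relative to the markers it was so for 0 of the 13, which could not be otherwise for the 11 above the markers' own change. The share of all genes on that scale was not computed, so nothing is read from this count either. The part of the cell type markers in the results for single members was not tested further.

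**Figure D4:**
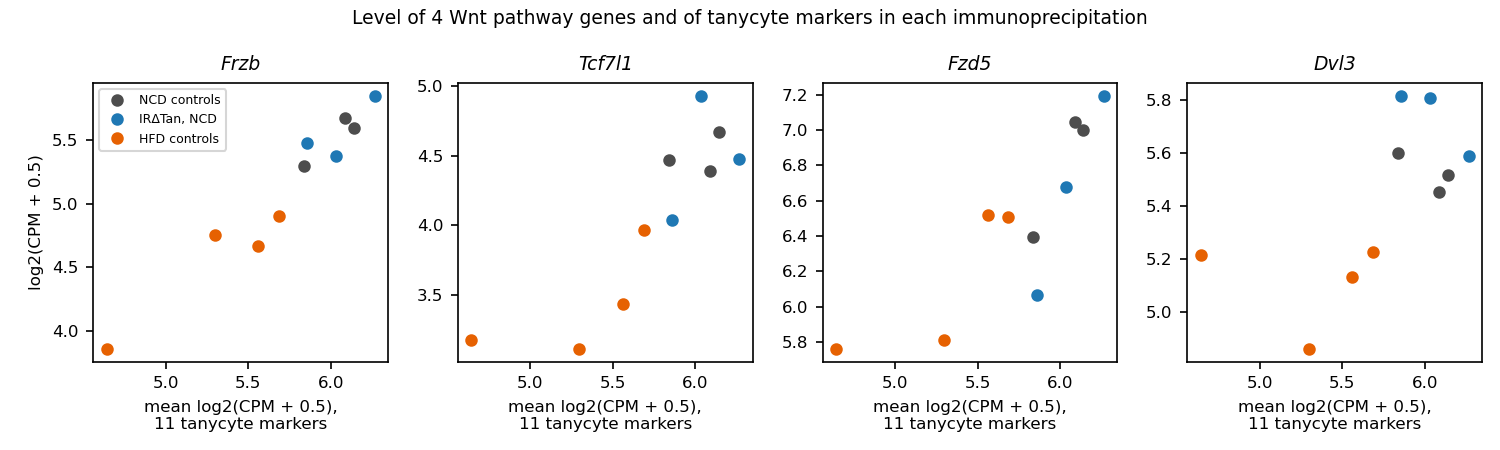
Log2(CPM + 0.5) of Frzb, Tcf7l1, Fzd5 and Dvl3 (y axes) against the mean log2(CPM + 0.5) of the 11 other tanycyte markers (x axis) in the 10 IPs; each point is a pool. All 4 HFD pools lie left of the other pools, with the lowest marker mean, 4.64, in HFD pool 2, and in the Fzd5 panel 2 of them reach the height of NCD and IRΔTan pools.

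In the input, 2 members differed between diets, beside 6.27% of all genes higher and 5.40% lower. Fzd1 had 12.3, 14.05, 10.5 and 14.5 CPM on HFD and 18.4, 17.0 and 17.0 in NCD-fed controls, with no overlap (-0.51, SE 0.12, adjusted p = 0.012). Apc had 318.6, 289.3, 289.8 and 332.2 CPM against 357.1, 380.3 and 401.5 (-0.36, SE 0.09, adjusted p = 0.024), the opposite of its direction in the IP. Without HFD pool 3 neither was called (adjusted p = 0.065 and 0.15), and Fzd1 was not called without NCD control pool 1 (0.062) nor Apc without pool 2 or 3 (0.073 and 0.11). With the length trend removed, Apc was not called (-0.19, adjusted p = 0.14). A further 6 members had an unadjusted p under 0.05. They were Lgr4 (-0.30, SE 0.10, adjusted p = 0.082), Dvl1 (0.25, SE 0.10), Fzd3 (-0.21, SE 0.08), Wnt4 (-0.30, SE 0.12), Dkk1 (-0.83, SE 0.37) and Lrp6 (-0.23, SE 0.11). Tcf7l1, which fell in the IP, had 4.88, 4.53, 4.15 and 3.99 CPM in the HFD inputs and 3.12, 3.28 and 3.58 in those of controls, with no overlap but without passing the test (0.34, SE 0.19, adjusted p = 0.28). Frzb had 1.13, 1.69, 1.36 and 1.36 CPM and did not pass (-0.31, SE 0.26).

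The diet effect in the IP differed from that in the input for 7 members by the interaction term, 2 in the positive and 5 in the negative direction, beside 21.8% and 18.4% of all genes. The difference was 1.14 (SE 0.14) for Apc, with 0.60 to 1.23 over the alternatives, and 0.81 (SE 0.14) for Ctnnb1. It was -1.41 (SE 0.26) for Tcf7l1, -0.85 (SE 0.29) for Fzd5, -0.78 (SE 0.28) for Dvl2, -0.39 (SE 0.12) for Dvl3 and -0.34 (SE 0.13) for Axin2. For Frzb it was -0.61 (SE 0.32, adjusted p = 0.14). Of these, Apc, Ctnnb1 and Tcf7l1 passed under all 15 alternatives, and the members lower numbered 1 without NCD control pool 2 and 2 without HFD pool 2. Among all genes, 1894 of 13578 and 1963 of 13565 were lower in those fits. The call of Dvl3 was lost without NCD control pool 2 (adjusted p = 0.069), that of Fzd5 without 3 single pools (0.061 to 0.15), that of Dvl2 without 4 (0.075 to 0.13) and that of Axin2 without 6 (0.052 to 0.14). With library totals 43.0% of all calls were higher, and 7 members were lower, beside 3085 of 13568 genes.

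The other genes of the pathway were taken from 6 lists. Their counts stand beside the shares of all genes given above for the same comparisons, 34.1% higher and 33.0% lower in the IP of NCD-fed controls and 25.7% higher and 26.4% lower in the IP on HFD. Nothing particular to a list is read from them. In NCD-fed controls 8 of 12 nuclear cofactors were higher in the IP and 3 were lower, among them the corepressor Tle3 (1.71, SE 0.07) and Cby1, which binds β-catenin (1.45, SE 0.11), on the higher side and Pygo1 (-0.69, SE 0.08) on the lower. On HFD, 3 of the 12 fell in the IP, about the share of all genes, and none rose. They were Tle3 (-0.49, SE 0.07), Cby1 (-0.53, SE 0.13) and Tbl1xr1 (-0.37, SE 0.11). The medians on HFD were -0.17 for this list and -0.04 for all genes.

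Of 14 tested genes for non-canonical receptors and planar cell polarity, 6 were higher and 6 lower in the IP of NCD-fed controls. Celsr1, a cadherin of the polarity system, was higher (3.38, SE 0.25), whereas Prickle2 (-1.26, SE 0.07) and Prickle1 (-1.52, SE 0.14) were lower. On HFD 7 rose in the IP and 3 fell, and Prickle1 (1.39, SE 0.21), Prickle2 (0.70, SE 0.12) and Scrib (0.73, SE 0.12) rose with the smallest p.

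Of 12 kinases and other destruction complex genes, 4 were higher and 6 lower in the IP, with Tnks (-1.09, SE 0.10), which marks axin for degradation, Gsk3b (-0.46, SE 0.06) and Amer1 (-0.99, SE 0.15) among the lower. On HFD 5 rose in the IP and 2 fell, and Apc2 (1.37, SE 0.15), Tnks (0.73, SE 0.09) and Btrc (0.44, SE 0.07) rose. Of 9 tested further extracellular and receptor regulators, 1 was higher in the IP (Kremen1, a Dickkopf receptor, 1.12, SE 0.18) and 3 were lower, among them Lypd6 (-0.89, SE 0.13) and Lrp4 (-0.89, SE 0.17). Lrp4 alone of the 8 tested changed in the IP on HFD (0.63, SE 0.15). Of the 2 secretion genes, Wls, which carries Wnt ligands to the surface, was lower in the IP (-0.56, SE 0.17), and neither changed on HFD.

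Among 11 tested target genes of β-catenin, 4 were higher and 3 lower in the IP of NCD-fed controls. The list includes the members Axin2, Lef1 and Tcf7. On HFD 2 of 9 fell in the IP, the feedback inhibitors Nkd2 (-0.41, SE 0.10) and Nkd1 (-0.31, SE 0.11), and none rose. No gene of the 6 lists differed between IRΔTan mice and controls in the IP. In the input on HFD, Vangl2 (0.43, SE 0.09), Csnk1e (0.31, SE 0.08), Gsk3b (0.31, SE 0.08) and Tle5 (0.55, SE 0.11) rose, and Invs (-0.42, SE 0.13) fell.

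A further 19 genes of these families had entries in the count table but in neither comparison table, and so were not members. They include Lgr5, with 3.14 ± 1.48 (SD, n = 3) CPM in the IP and 8.08 ± 0.99 (SD, n = 3) in the input of NCD-fed controls, and Wif1, a Wnt inhibitor, at 0.939 ± 0.459 (SD, n = 3) and 0.992 ± 0.115 (SD, n = 3) CPM. The highest estimated count of Lgr5 in any library was 354.6 and that of Wif1 138.0. The other 17, among them Wnt1, Wnt2 and Wnt3a, each had a highest count below that of Wif1.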

How the data were processed

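RNA of the IP and of the input was sequenced from 10 pools of hypothalami (20 libraries). The authors ran the nf-core rnaseq pipeline on GRCm38 and quantified genes with Salmon (0.14.1). STAR and DESeq2 (1.30.0) also appear in the notes of the submitters. The estimated counts they deposited cover 44674 genes, are not scaled, and 28.0% of the values are not whole numbers. The authors' tables of fold changes and adjusted p-values were not used, except for their gene identifiers and symbols. Antisense or overlapping genes were not separated beyond that quantification.

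Estimated counts were rounded to whole numbers. The quasi-likelihood test came from edgeR (4.0.16, run in R 4.3.3), with TMM scaling and 1 mean per group and fraction. The genotype comparisons used 12 libraries and the diet comparisons 14. Tested genes were those of the deposited table that passed edgeR's expression filter (minimum 10 counts). Benjamini-Hochberg adjustment ran over all tested genes, with 0.05 as threshold. CPM values carry TMM factors from the 20 libraries together, and log2 CPM used a prior of 0.5. Lengths are from GENCODE vM21, which matched 44118 identifiers. Labels do not say that pools came from separate litters, so p-values measure the spread between pools.

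Per-library values are given for Frzb, the 3 highest members per role by IP level, the members with the largest called changes and some of those with the smallest p in the input; other pathway genes are the 3 of each list with the smallest p. The members and lists were chosen with earlier results of these data known. In the IP and the input of a pool, which come from 1 lysate, deviations from the group mean correlated at 0.037 to 0.299, over 0.1 in 9 of 10 pools. Alternatives tried were library totals or median-ratio size factors as scaling, DESeq2 (1.42.0) as test, no filter, all genes of the count table, 1 fraction alone, all 20 libraries, replicate blocks, a length correction and each pool left out.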

Additional observations from a re-analysis of the deposited data

Results flagged for a closer look

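A test of the difference between fractions separated the effect of diet for 7 of 42 members, beside 21.8% of all genes in the positive and 18.4% in the negative direction, so the members were not called more often than other genes. The diet effect in the IP minus that in the input was 1.14 for Apc, 0.81 for Ctnnb1, -0.34 for Axin2, -0.39 for Dvl3, -0.78 for Dvl2, -0.85 for Fzd5 and -1.41 for Tcf7l1 on the log2 scale. The calls of Axin2, Dvl2, Dvl3 and Fzd5 were each lost without at least 1 single pool, and those of Apc, Ctnnb1 and Tcf7l1 were not. The difference for Apc ran from 0.60 to 1.23 over the alternatives.

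In 4 of 84 groups of 4 HFD pools tested, 1 pool stood apart from the other 3, and chance gives such a gap in about 5% of groups. In the IP, Wnt9a had 3.80 CPM in HFD pool 3 (others 2.71 to 2.81) and Fzd4 had 1.47 CPM in HFD pool 2 (others 0.789 to 0.865). In the input, Wnt9a had 3.65 CPM in HFD pool 2 (others 4.07 to 4.11) and Fzd2 had 1.63 CPM in HFD pool 1 (others 2.48 to 2.56).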

How the results depend on the processing

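Of 98 results for named members, 58 were on the same side of the threshold and in the same direction under every alternative. Of 1441 alternative values 1306 were so, 133 lost the call and 2 were reversed, both for Lrp6 in IP against input with the trend with gene length removed (0.20 in NCD controls and 0.025 in IRΔTan mice). DESeq2 called 1 member higher in the IP of IRΔTan mice, beside 94 of 13518 genes. In the IP on HFD, members lower numbered 8 with all genes of the count table and 5 with IPs alone, beside 3650 of 19589 and 2450 of 13465 genes. In the input on HFD, inputs alone gave 3 higher and 5 lower, beside 2246 and 1915 of 13346 genes. The length correction gave 1 lower, beside 517 of 13568 genes. In the diet by fraction interaction, the length correction gave 4 higher and 9 lower, beside 2295 and 2339 of 13568 genes. Testing all genes that have counts gave 2 lower, beside 2306 of 19589. Relative to the tanycyte markers, a scaling chosen after seeing the data, 0 of 13 members had every HFD pool below every NCD pool in the IP. In CPM it was 10, for which they had been picked as lower, beside 24.5% of all genes tested. Members above the markers' own change could not separate in this way, so nothing is read from either count. Leaving out single pools gave 13 to 15 members higher and 9 to 14 lower in IP against input of NCD controls, 5 to 10 lower in IRΔTan mice, 5 to 14 lower in the IP on HFD, 0 to 3 lower in the input on HFD, and 1 to 5 lower in the interaction. Of the 13543 to 13592 genes in these fits, 4021 to 4662 were higher and 3959 to 4413 lower in NCD controls. Genes lower numbered 3784 to 4515 in IRΔTan mice and 3028 to 3782 in the IP on HFD. They numbered 186 to 644 in the input on HFD and 1894 to 2642 in the interaction. With the replicate block (the pool for IP against input and interactions), 13 members were lower and 4 higher in the IP on HFD, 3 lower in the input and 7 lower in the interaction. Of 13568 genes, 3345 were lower and 3303 higher in that IP, 506 lower in the input and 2682 lower in the interaction. Same-numbered pools of different groups share only a number (correlations of -0.272 to 0.172). Depth limits the members with few counts: for IP over input in NCD controls the SE was 0.45 for Dkk1 and 0.47 for Wnt9b, against 0.09 for Apc.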
